A study of Mus musculus with 14 samples.

Results

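MicroRNA (miR) levels in failing left ventricle were compared between mice with heart failure (HF) that received estradiol (HF+E2) and mice with HF that did not. The comparison uses 10 of the 14 arrays in the series, 5 HF+E2 and 5 HF, each of a separate left ventricular sample. All 520 mouse miRs with values in the deposited table were tested, and 255 of them are described mainly, because their probes were neither saturated nor close to the detection threshold. A probe was counted as saturated when at least 2 of its 3 spots read 65000 or more on any of the 14 arrays, which held for 42 miRs. Another 223 miRs had a mean level less than 2 log2 units above the mean array threshold, and no miR was in both classes.

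All mice were male C57Bl/6 animals aged 3 to 4 months. HF followed transaortic constriction (TAC), a surgical narrowing of the aorta that loads the left ventricle with pressure, and was present 6 to 8 weeks after surgery. HF mice were taken at that point, whereas HF+E2 mice then received 0.03 mg/kg/day of estradiol from a pellet under the skin for 10 days. No group of failing hearts with an empty pellet and the same extra days was analysed here, so that estradiol and the additional 10 days cannot be told apart. The 4 sham-operated mice of the series entered the fit and are used here only for reference. Estradiol was therefore given to male hearts after failure had developed, at 1 dose and for 1 duration.

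MiRs are short RNAs that pair with messenger RNAs, mainly through the seed at bases 2 to 8, and lower the stability and translation of those messengers. Precursors are cut into 2 arms, of which 1 is often more abundant, and miRs that share a seed form a family with overlapping targets. Estradiol binds estrogen receptors, which act mainly as transcription factors and are present in cardiomyocytes, fibroblasts and endothelial cells. In rodents, pressure overload induces miR-208b, encoded in an intron of the slow myosin gene Myh7, and miR-21, a miR of cardiac fibroblasts.

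In HF+E2, 4 of the 255 miRs were lower than in HF and 1 was higher with a limma adjusted p below 0.05 and a difference of more than 0.5 log2 units in either direction. The 4 lower miRs were miR-335-5p, miR-98, miR-106a and miR-322, with levels 1.70-, 1.61-, 1.49- and 1.43-fold higher in HF than in HF+E2. The higher miR was miR-193, at 1.82-fold. These calls are 1.57% of the 255 miRs for the lower and 0.392% for the higher direction. The 4 lower miRs were also lower when the arrays were not scaled to each other, whereas miR-193 was then not called. Whole ventricular tissue was measured, in which fewer cells of a type and less RNA per cell cannot be told apart.

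Probes for near-identical miRs can bind each other's targets. The mature sequences of the called miRs are therefore shown with those of some, not all, measured miRs of the same seed. They are written 5′ to 3′ with the seed in capitals, from RefSeq for GRCm38.p6.
miR-335-5p: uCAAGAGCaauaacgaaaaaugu
miR-98: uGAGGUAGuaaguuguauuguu
let-7a: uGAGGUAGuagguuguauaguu
let-7c: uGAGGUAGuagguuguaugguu
let-7e: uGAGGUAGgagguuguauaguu
miR-106a: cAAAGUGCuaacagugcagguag
miR-17: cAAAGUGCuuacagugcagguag
miR-20b: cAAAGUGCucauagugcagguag
miR-322: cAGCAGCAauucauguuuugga
miR-15b: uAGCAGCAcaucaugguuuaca
miR-497: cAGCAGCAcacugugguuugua
miR-193: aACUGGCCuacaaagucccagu
miR-193b: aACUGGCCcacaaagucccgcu
MiR-98 carries the let-7 seed, miR-106a the miR-17 seed, and miR-322 the miR-15/16 seed. MiR-106a differs from miR-17 by 1 base and from miR-20b by 2, and miR-98 differs from let-7a and let-7c by 2, so that their signals may be shared with those miRs. No other measured mouse miR came that close to miR-335-5p, which was the called miR with the smallest adjusted p.

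MiR-98, miR-106a and miR-322 are encoded on the X chromosome, miR-98 at chrX:151913229-151913250 within the bounds of Huwe1, miR-106a at chrX:52742541-52742563 and miR-322 at chrX:53054306-53054327. MiR-335-5p lies at chr6:30741314-30741336 within Mest, an imprinted gene, and miR-193 lies at chr11:79712009-79712030. The median difference of the 26 miRs of the 255 that were placed on X only was 0.02 log2 units, and that of the 176 placed on autosomes was -0.06.

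The HF+E2 arrays were dimmer than the HF arrays before scaling, except for HF+E2 1. Each array had been shifted by 1 constant on the log2 scale, which was between -0.74 and -0.14 on the HF arrays. It was -0.62 on HF+E2 1 and between 0.23 and 0.52 on HF+E2 2 to HF+E2 5. The mean constants of HF+E2 and HF were 0.62 log2 units apart (p = 0.0397 in a two-sided exact permutation test). Before scaling, the median level of the 255 miRs was between 10.02 and 10.66 in HF, 10.45 in HF+E2 1 and between 9.27 and 9.60 on the other HF+E2 arrays, and sham arrays were at 9.27 to 9.87. Without HF+E2 1, 14 of the 255 miRs were called, 4 higher and 10 lower, and 3 of them were among the 5 called with all arrays. Without HF 4, only miR-335-5p was called, and without HF 1, HF 3, HF+E2 2, HF+E2 4, sham 2 or sham 3, each left out alone, 3 were called.

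**Figure D1:**
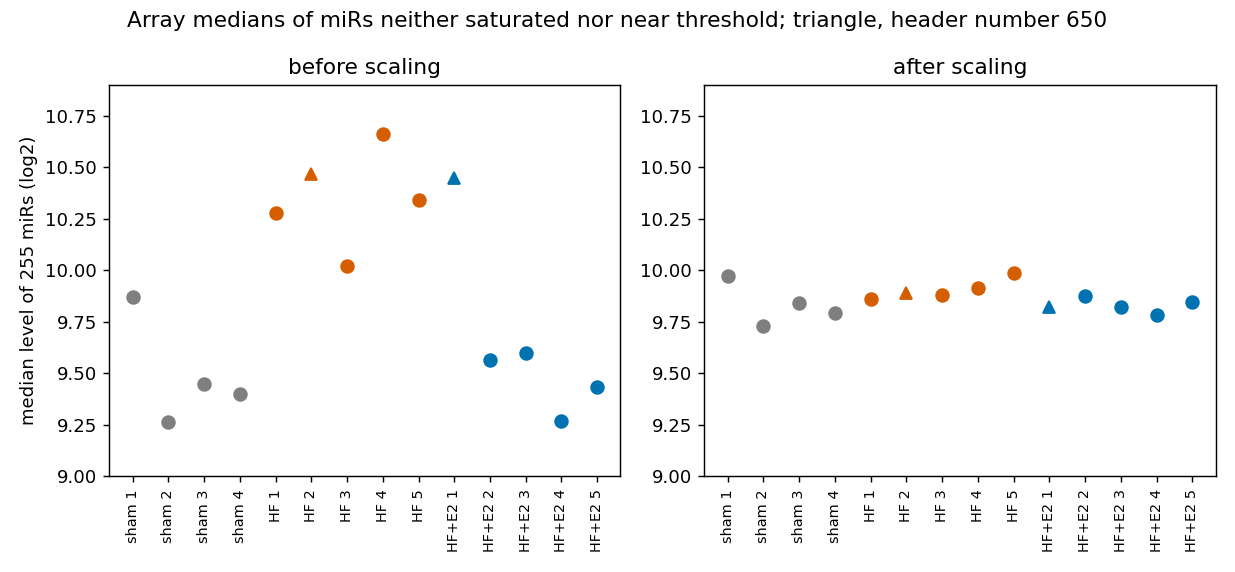
Median log2 level of the 255 miRs on each array before scaling (left) and after scaling (right). Before scaling the HF arrays and HF+E2 1 lie between 10.02 and 10.66 and the other HF+E2 arrays between 9.27 and 9.60; after scaling all 14 arrays lie between 9.73 and 9.99.

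MiR-335-5p had scaled log2 levels of 12.00, 12.20, 12.47, 12.48 and 12.37 in HF 1 to HF 5 and of 11.44, 11.43, 11.34, 11.80 and 11.66 in HF+E2 1 to HF+E2 5. Every HF+E2 array was below every HF array, and also below every sham array, which ranged from 11.85 to 12.02. The group means were 12.30 ± 0.20 (SD, n = 5) in HF and 11.53 ± 0.19 (SD, n = 5) in HF+E2, a difference of -0.77 log2 units (SE 0.128, limma adjusted p = 0.00851, 95% interval -1.04 to -0.50). An exact permutation test, two-sided, gave p = 0.00794, the smallest that 5 against 5 arrays allow. Before scaling, the mean intensity was 7006 ± 1533 (SD, n = 5) in HF and 2725 ± 885 (SD, n = 5) in HF+E2, a log2 difference of -1.39 (limma adjusted p = 0.00201). The difference was called after leaving out any 1 of the 14 arrays, with values between -0.84 and -0.72. It stood beside 0.39 for HF minus sham and -0.38 for HF+E2 minus sham, so that the HF+E2 mean was below the sham mean as well.

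MiR-98, which shares its seed with the let-7 miRs, had scaled log2 levels of 10.56, 10.81, 10.51, 10.65 and 10.42 in HF and of 9.57, 10.29, 9.58, 9.94 and 10.13 in HF+E2. The HF and HF+E2 arrays did not overlap, although the HF+E2 arrays spread more widely. The difference was -0.69 log2 units (SE 0.153, limma adjusted p = 0.0195, 95% interval -1.01 to -0.36). Before scaling, the mean intensity was 2178 ± 516 (SD, n = 5) in HF and 892 ± 225 (SD, n = 5) in HF+E2, a log2 difference of -1.29 (limma adjusted p = 0.00289). Sham arrays were at 10.07 to 10.43, with 0.27 for HF minus sham and -0.42 for HF+E2 minus sham. Without HF 4 the difference between HF+E2 and HF was -0.67 and no longer called (limma adjusted p = 0.0619).

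MiR-106a is the X-linked counterpart of miR-17 and belongs to a family that is highest in proliferating cells. Its scaled log2 levels were 10.64, 10.78, 10.78, 10.63 and 10.76 in HF, a range of 0.15, against 9.76, 10.32, 10.00, 10.29 and 10.36 in HF+E2. All HF+E2 arrays lay below all HF arrays, by -0.57 log2 units on average (SE 0.132, limma adjusted p = 0.0198, 95% interval -0.85 to -0.29). Before scaling, the mean intensity was 2323 ± 325 (SD, n = 5) in HF and 1019 ± 189 (SD, n = 5) in HF+E2, a log2 difference of -1.20 (limma adjusted p = 0.000262). HF minus sham was 0.10, and HF+E2 minus sham was -0.48. The call was lost without HF 4 (-0.60, limma adjusted p = 0.0619) and without HF+E2 1, where the difference was -0.48 and its adjusted p 0.0126.

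MiR-322, the mouse counterpart of human miR-424, had scaled log2 levels of 12.20, 12.42, 12.35, 12.14 and 11.91 in HF and of 11.26, 11.80, 11.71, 11.78 and 11.91 in HF+E2. The groups met at HF 5 and HF+E2 5. The difference of -0.51 log2 units (SE 0.138, limma adjusted p = 0.0356) was just past the threshold of 0.5. Before scaling, the mean intensity was 6547 ± 1353 (SD, n = 5) in HF and 2962 ± 481 (SD, n = 5) in HF+E2, a log2 difference of -1.13 (limma adjusted p = 0.00101). HF minus sham was 0.12 and HF+E2 minus sham -0.39. The difference between HF+E2 and HF was called in 4 of the 14 fits that left out 1 array, without HF 5, HF+E2 5, sham 1 or sham 4, and over the 14 fits the difference was between -0.59 and -0.41. Leaving out any of the other arrays ended the call.

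MiR-193, the only miR of the 255 that was called higher, had scaled log2 levels of 7.36, 8.17, 7.76, 6.54 and 8.46 in HF and of 8.40, 8.19, 8.71, 8.71 and 8.60 in HF+E2. HF 4 was low and HF 5 reached into the HF+E2 range. The difference was 0.86 log2 units (SE 0.272, limma adjusted p = 0.0453, 95% interval 0.29 to 1.44), beside -0.42 for HF minus sham and 0.44 for HF+E2 minus sham. Before scaling, the mean intensity was 299 ± 133 (SD, n = 5) in HF and 340 ± 110.9 (SD, n = 5) in HF+E2. The log2 difference was then 0.25 (limma adjusted p = 0.52), and without HF 4 it was 0.58 on scaled values and not called (limma adjusted p = 0.121). The scaled difference was called only without HF 2, HF 5 or HF+E2 1 among the 14 fits that left out 1 array.

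**Figure D2:**
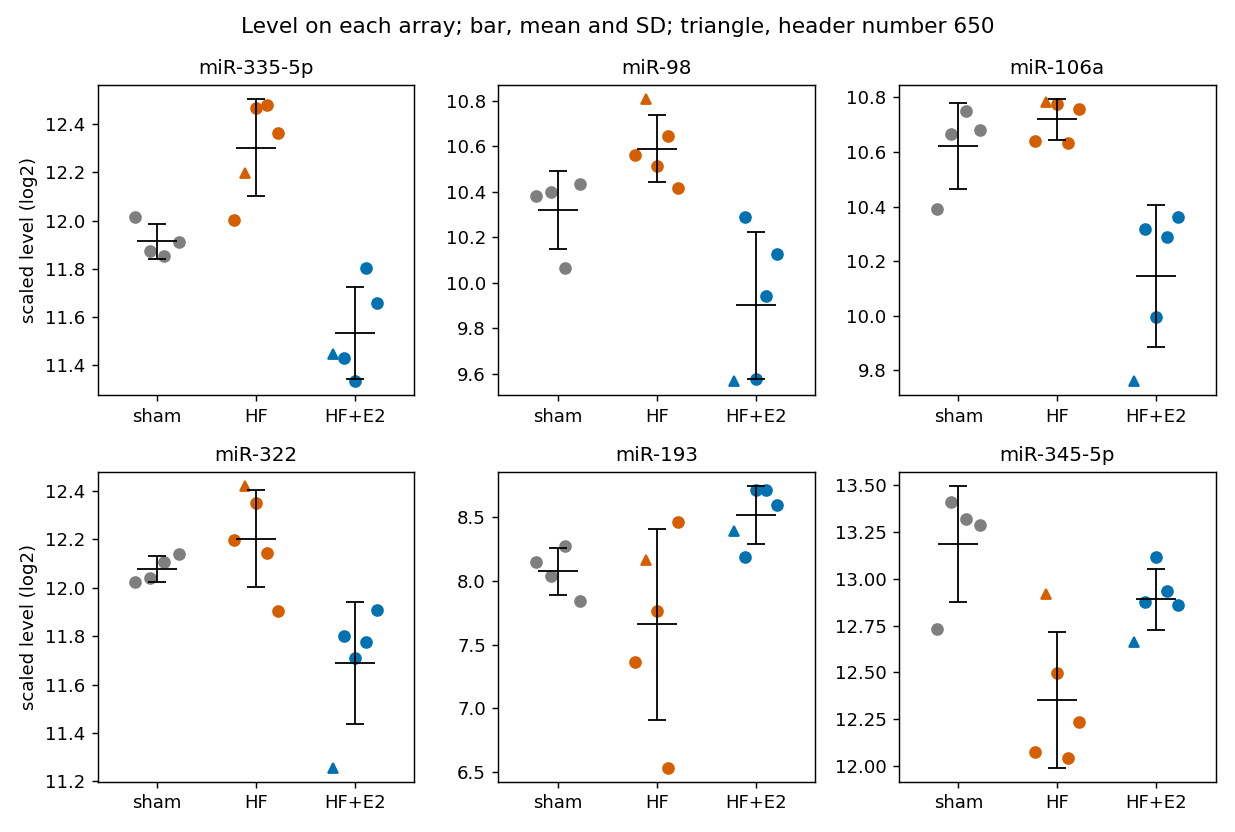
Scaled log2 level of the 5 called miRs and of miR-345-5p on each array, with 4 sham, 5 HF and 5 HF+E2 arrays, and the mean and SD of each group. For miR-335-5p, miR-98 and miR-106a all HF+E2 arrays lie below all HF arrays, whereas miR-322 and miR-193 overlap. Triangles are the arrays with 650 in their column header.

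The next miRs by p did not pass both thresholds. In the lower direction, miR-374, encoded in the X-linked Ftx gene, differed by -0.57 log2 units (limma adjusted p = 0.0511), and miR-26b, from an intron of Ctdsp1, by -0.39 (limma adjusted p = 0.0757). MiR-374 was 6.52 on HF+E2 1 and between 7.12 and 7.62 on the other HF+E2 arrays, against 7.54 to 8.17 in HF. MiR-1247* differed by -0.69 (limma adjusted p = 0.118).
In the higher direction, miR-345-5p differed by 0.54 log2 units (limma adjusted p = 0.056) and miR-3068* by 0.65 (limma adjusted p = 0.056). MiR-345-5p was bright in all groups, with 12.35 ± 0.36 in HF and 12.89 ± 0.16 in HF+E2 (SD, n = 5 each), and HF 2 at 12.92 was its only HF array within the HF+E2 range of 12.66 to 13.12. MiR-3474 had a limma adjusted p of 0.0419, but its difference of 0.42 was under 0.5.

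Over the 255 miRs the median difference was -0.04 log2 units, 145 miRs were lower and 110 higher in HF+E2, and 234 differed by at most 0.5. For 106 miRs the 95% interval of the difference lay wholly within 0.5 log2 units of 0, and for the others it reached further. HF and HF+E2 arrays did not overlap for 9 of the 255 miRs (3.53%), of which 7 were lower and 2 higher, and for 29 of all 520 (5.58%). Besides miR-335-5p, miR-98 and miR-106a, the 9 include miR-100 (-0.34), miR-299* (-0.35), miR-378* (0.27) and miR-30c-1* (0.21), none of which was called.

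Without scaling, 117 of the 255 miRs were lower in HF+E2 (45.9%) and 0 were higher, with a median difference of -0.65 log2 units, and 251 of the 255 differences were negative. Of all 520 miRs, 170 were lower (32.7%) and 0 higher. Of the 117 miRs, 18 had scaled differences above 0. Their number was 67 without HF 2, 56 without HF 4, 206 without HF+E2 1, 61 without HF+E2 2, 60 without HF+E2 3, 51 without HF+E2 4 and 51 without HF+E2 5. MiR-335-5p, miR-98, miR-106a and miR-322 were called lower on both scales.

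With the deposited scaling, 58 of all 520 miRs were called higher (11.2%) and 5 lower (0.962%), and 57 of the 58 were saturated or near the threshold. The 58 became 8 without HF 1, 4 without HF 4, 17 without HF 5, 9 without HF+E2 2, 19 without HF+E2 3, 6 without HF+E2 4 and 12 without HF+E2 5, and they became 20, 20 and 22 without sham 2, sham 3 and sham 4. Of the 42 saturated miRs, 24 were called higher. The 20 saturated on all 14 arrays, which include miR-1 and miR-133a of heart muscle, miR-126-3p of endothelium and miR-143 and miR-145 of smooth muscle, all had differences within 0.01 of the 0.62 log2 units by which the constants differed. Their spots could not register a change, so that these calls are the constant itself.

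Of the 223 miRs near the threshold, 33 were called higher and 1 lower, with a median difference of 0.21 log2 units. The negative control probes were higher in HF+E2 as well, with a scaled mean of 3.85 ± 0.27 in HF and 4.62 ± 0.11 in HF+E2 (SD, n = 5 each), while their median intensity before scaling was 22.6 ± 6.08 and 25.3 ± 7.17. After subtraction of the negative controls 0 of all 520 miRs were called higher. MiR-129-5p, which the study had picked on the HF and sham arrays, was among the 33, and since the HF arrays are shared its value is not independent of that choice. It was at 5.47 ± 0.37 in HF and 6.14 ± 0.24 in HF+E2 (SD, n = 5 each), a difference of 0.67 (limma adjusted p = 0.0295) that was 0.03 before scaling (limma adjusted p = 0.928). On scaled values the call of miR-129-5p was lost without HF 1, HF 4 or HF 5 and without any of HF+E2 2 to HF+E2 5, with differences of 0.57 to 0.66 in these fits. The opposite arms, miR-129-1-3p and miR-129-2-3p, differed by -0.03 and -0.26 and were not called.

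**Figure D3:**
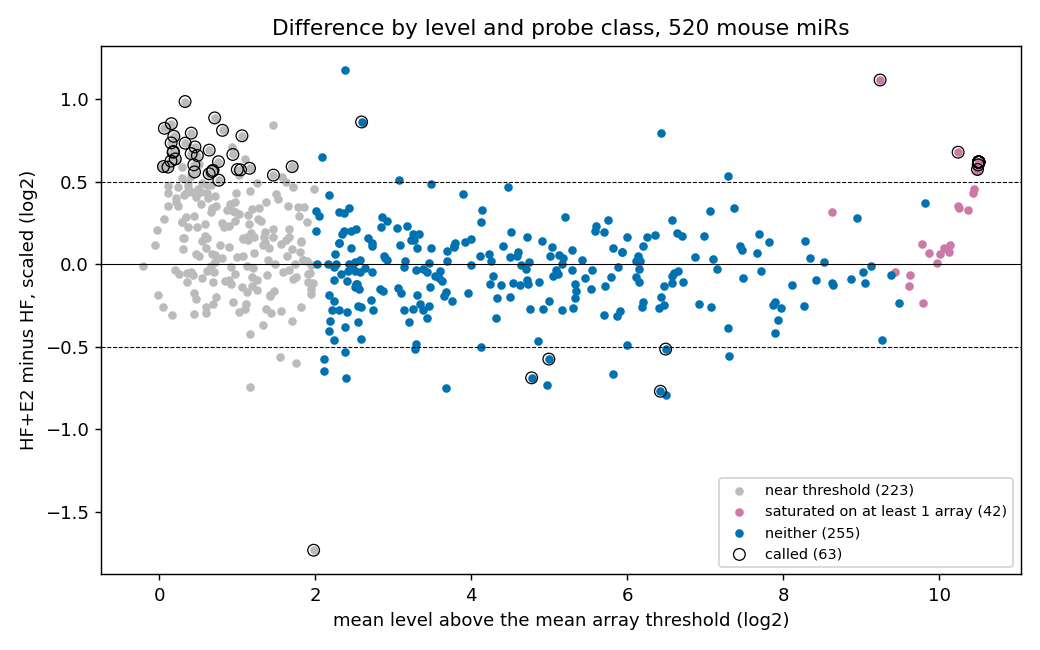
Difference between HF+E2 and HF on scaled log2 values against the mean level above the mean array threshold, for 255 miRs that are neither saturated nor near the threshold, 42 saturated and 223 near the threshold. Circles mark the 63 called miRs; 57 of the 58 called higher lie at the 2 ends of the level range, among the miRs near the threshold or saturated.

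The miR near the threshold that was called lower was miR-204, and it is named here after its values were seen. Its mean level was 1.98 log2 units above the threshold, just outside the limit of 2, next to miR-298 at 1.99 and miR-669c at 1.97. Just inside were miR-207 at 2.01, miR-101a* at 2.01 and miR-212-3p at 2.02. MiR-204 was at 6.64, 7.08, 9.43, 9.41 and 9.70 in HF 1 to HF 5 and between 6.10 and 7.11 in HF+E2, against 6.97 to 7.45 in sham. The HF arrays fell into low (HF 1 and HF 2) and high (HF 3 to HF 5) levels, with only the low ones reaching the HF+E2 range. The difference was -1.73 log2 units (SE 0.50, limma adjusted p = 0.0419). It was not called without HF 3 (-1.49), HF 4 (-1.49) or HF 5 (-1.42), nor without any HF+E2 array or sham 2, sham 3 or sham 4.

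The miRs best known from the failing heart were not called. MiR-208b had scaled log2 levels of 12.63, 13.20, 13.80, 14.17 and 14.83 in HF and of 12.67, 12.66, 13.48, 12.68 and 13.18 in HF+E2, whereas sham arrays were between 7.67 and 9.10. HF 3, HF 4 and HF 5 were above all HF+E2 arrays, and HF 1 was below them all. The difference between HF+E2 and HF was -0.79 (SE 0.359, limma adjusted p = 0.171), beside 5.11 for HF minus sham and 4.32 for HF+E2 minus sham. Both of these share arrays with the first difference. Without scaling the difference was -1.41 (limma adjusted p = 0.0308).

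MiR-208a-3p, from an intron of the fast myosin gene Myh6, differed by 0.37 log2 units and its opposite arm miR-208a-5p by 0.17, with HF minus sham at -0.83 and -0.84. MiR-499, from an intron of Myh7b, differed by -0.26. MiR-21 was at 13.85, 13.09, 13.27, 13.14 and 13.56 in HF and at 12.57, 12.88, 12.05, 13.06 and 13.57 in HF+E2, where 4 of 5 arrays lay below all HF arrays and HF+E2 5 did not. Its difference was -0.56 (SE 0.228, limma adjusted p = 0.137), beside 1.34 for HF minus sham and 0.78 for HF+E2 minus sham. An exact permutation test, two-sided, gave p = 0.0952. Without scaling the difference was -1.18 (limma adjusted p = 0.0107), with p = 0.00794 in the exact permutation test.

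**Figure D4:**
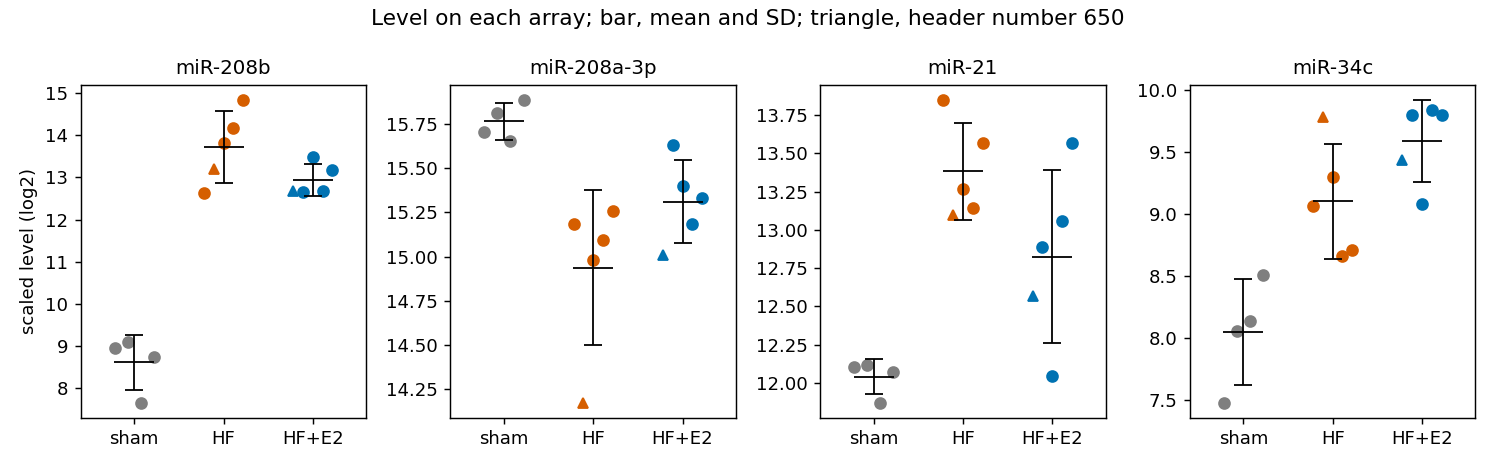
Scaled log2 level of miR-208b, miR-208a-3p, miR-21 and miR-34c on each of the 14 arrays, with the mean and SD of the sham, HF and HF+E2 groups. For miR-208b the HF arrays range from 12.63 to 14.83 and the HF+E2 arrays from 12.66 to 13.48, and for all 4 miRs the HF and HF+E2 arrays overlap.

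Of 18 miRs known to rise in failing hearts that were measured, 11 were among the 255, and 0 of the 11 were called, with differences from -0.79 to 0.51 and a median of 0.05, where 1.57% of all 255 were called lower and 0.392% higher. Without scaling, 3 of the 11 were called lower, beside 45.9% of all 255. MiR-34a, miR-34b-5p and miR-34c, which p53 induces, were on the positive side without being called, whereas miR-449c, which has the same seed, differed by -0.32 (limma adjusted p = 0.389). MiR-34c differed by 0.49 (limma adjusted p = 0.196), miR-34b-5p by 0.51 (limma adjusted p = 0.265) and miR-34a by 0.32 (limma adjusted p = 0.239). MiR-34c was between 8.66 and 9.79 in HF and between 9.08 and 9.84 in HF+E2, beside 7.48 to 8.51 in sham. Without scaling the differences of miR-34c, miR-34b-5p and miR-34a were negative, at -0.13, -0.12 and -0.30.

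Growth-related families held 2 of the called miRs, miR-322 and miR-106a. The 4 listed members of the miR-15/16 family among the 255 were all on the negative side, from miR-322 at -0.51 through miR-497 at -0.25 and miR-15b at -0.24 to miR-15a at -0.06, and 1 was called. MiR-1907, which has the same seed, differed by -0.19 (limma adjusted p = 0.68). Of 12 miRs from the miR-17-92 cluster or its paralogs, 8 were negative and 1, miR-106a, was called. Of all 255 miRs, 145 were negative and 1.57% were called lower on scaled values. Without scaling, 10 of these 12 and all 4 of the miR-15/16 family were called lower, beside 45.9% of all 255. MiR-20b differed by -0.28 and miR-92a by -0.26, whereas miR-17*, the opposite arm of miR-17, differed by 0.23. The median over the 6 miRs with the miR-17 seed was -0.17, and that over all 255 was -0.04. In the let-7 family, 7 of 9 members were saturated, which left miR-98 and let-7e, the latter at -0.26 (limma adjusted p = 0.25). The 4 members of the miR-181 family ranged from -0.26 (miR-181d) to -0.08, and 0 were called on scaled and 4 on unscaled values.

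MiRs linked to estrogen action in other systems were listed with earlier results of these data known. Of 11 miRs described to respond to estradiol elsewhere, 7 were among the 255, with a median of -0.10. Of these 7, 2 were called lower (miR-106a and miR-322), beside 1.57% of all 255, and 6 were called lower without scaling, beside 45.9% of all 255. Of 9 miRs described to target the estrogen receptor alpha messenger, 7 were among the 255, 0 were called on scaled and 3 on unscaled values, and their differences on scaled values were between -0.28 and 0.18, with miR-20b at the lower and miR-221 at the upper end. MiR-193b, a member of this list and the closest relative of miR-193, differed by 0.11. MiR-335-3p, the opposite arm of miR-335-5p, which the study had likewise picked on the HF and sham arrays, was near the threshold and differed by 0.35 (limma adjusted p = 0.196).

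Matrix-related and imprinted groups showed small differences on scaled values, where 1.57% of all 255 miRs were called lower and 0.392% higher. The 8 mesenchymal and cartilage miRs among the 255 ranged from -0.19 (miR-214*) to 0.14, with 0 called, beside a median of 0.83 for HF minus sham and 0.80 for HF+E2 minus sham. In the families of miR-29 and miR-30, which restrain collagen and other matrix genes, 7 members were saturated, namely miR-29a, miR-29b and miR-30a to miR-30e. The 6 members among the 255 were miR-29c, at -0.12, and otherwise only opposite arms. They ranged from -0.15 to 0.21 (miR-30c-1*), with miR-29c* at 0.20 and 0 called, so that most main arms of these families were not measurable. The imprinted Dlk1-Dio3 cluster on chromosome 12 had 10 members among the 255, of which 0 were called. Of the 10, 8 were negative, beside 145 of all 255, and the median of the 10 was -0.21. The largest differences were at miR-434-3p (-0.38) and miR-299* (-0.35). MiR-100 differed by -0.34 (limma adjusted p = 0.125), and the 4 measurable members of its families had a median of -0.13. The 23 Sfmbt2 repeat miRs were between -0.28 and 0.16, with 0 called. Without scaling, 8 of the 10 Dlk1-Dio3 members were called lower, beside 45.9% of all 255. Also called lower were 4 of the 8 mesenchymal and cartilage miRs and 3 of the 6 miR-29 and miR-30 members, but 0 of the 23 Sfmbt2 miRs.

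**Figure D5:**
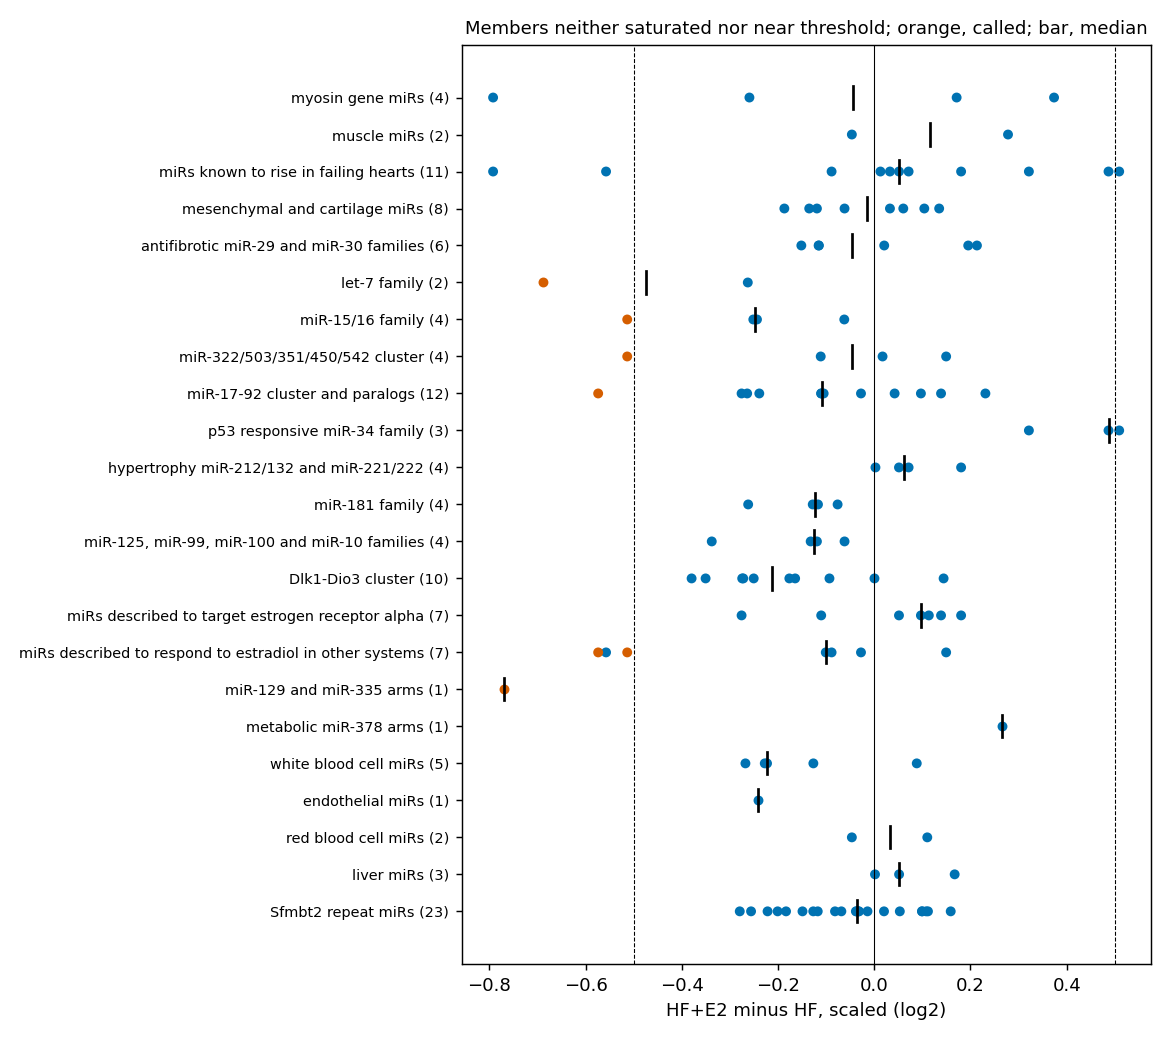
Difference between HF+E2 and HF on scaled log2 values for each member of the lists that is neither saturated nor near the threshold, with the number of such members in brackets. Orange points are called and vertical bars are list medians. Called members stand below -0.5 in 6 lists only, those that hold miR-98, miR-322, miR-106a or miR-335-5p.

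The marker miRs of cell types that were among the 255 showed 0 calls on scaled values, where 5 of all 255 miRs were called. Outside the 255, 3 muscle, 1 endothelial, 2 smooth muscle and 1 epithelial marker were called higher, all saturated or near the threshold. Without scaling, 4 of the 5 white blood cell miRs and miR-126-5p were called lower, beside 45.9% of all 255. So were 1 of 2 red blood cell, 1 of 2 muscle, 1 of 3 liver and 2 of 4 myosin gene miRs among the 255. White blood cell miRs had 5 measurable members with a median of -0.22, and all 6 markers were detected. Of the 5, 4 were negative, among them miR-223 at -0.23 and miR-142-5p at -0.22, and miR-146a was positive at 0.09. MiR-142-3p, near the threshold, differed by 0.05. Of the endothelial pair miR-126-5p differed by -0.24, while miR-126-3p was saturated. Both smooth muscle markers were saturated, as were miR-1, miR-133a and miR-133b of muscle. The opposite arm miR-133a* differed by 0.28. Of the red blood cell markers, miR-144 differed by 0.11 and miR-486, whose probe is shared with miR-3107, by -0.05, while miR-451 was saturated. The liver-enriched miR-192, miR-194 and miR-215 were detected and differed by 0.05, 0.17 and 0.00. The nervous system markers miR-124 and miR-9 and the liver marker miR-122 were not among the 520 miRs. The nervous system marker miR-219-5p was, near the threshold, and differed by 0.30 without being called.

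The 2 arms of a precursor were also compared within each array, since their difference does not depend on the scaling of the array. There were 35 precursors with both arms among the 255, of which 0 (0%) were called by limma, and 8 had an unadjusted p under 0.05. The smallest p belonged to miR-101a, whose level relative to miR-101a* was 1.04 ± 0.35 in HF and 0.44 ± 0.25 in HF+E2 (SD, n = 5 each), a difference of -0.60 (SE 0.161, limma adjusted p = 0.0634). MiR-101a* was only 2.01 log2 units above the threshold, just inside the limit of 2. The ratio removes the scaling but not the background. MiR-17 relative to miR-17* differed by -0.34 and miR-674 relative to miR-674* by 0.42 (limma adjusted p = 0.0634 for both). MiR-322 relative to miR-322* differed by -0.40 (limma adjusted p = 0.0645), with miR-322* itself at -0.11, and miR-425 relative to miR-425* by -0.28 (limma adjusted p = 0.155). MiR-101a was called when HF 5 or HF+E2 2 was left out, and miR-674 when HF+E2 3 was left out.

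Column headers of the arrays carry 2 markings whose meaning is not stated, a code and a number, 600 or 650. HF 1 to HF 4 carry 1 code, HF 5 and HF+E2 1 to HF+E2 3 another, and HF+E2 4 and HF+E2 5 a further one, so that only 1 code holds both groups. A fit with the code as a block therefore compares HF+E2 1 to HF+E2 3 with HF 5 alone, whose spread is assumed to be that of the other arrays. In this fit 0 miRs were called by limma, and 20 of the 255 had an unadjusted p under 0.05. The difference was -0.96 for miR-335-5p, -0.61 for miR-98, -0.73 for miR-106a, -0.32 for miR-322 and -0.03 for miR-193, with limma adjusted p of 0.162, 0.364, 0.162, 0.621 and 0.977. The sign held for the 4 lower miRs, and miR-193 showed almost no difference.

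The number 650 marks HF 2 and HF+E2 1. Between these 2 arrays the difference was -0.75 for miR-335-5p, -1.24 for miR-98, -1.02 for miR-106a, -1.16 for miR-322 and 0.23 for miR-193, and among the arrays marked 600 it was -0.77, -0.55, -0.46, -0.35 and 1.02. MiR-335-5p thus differed by nearly the same amount in both. Without the 650 arrays 16 of the 255 miRs were called, 6 higher and 10 lower, of which 3 were among the 5 called with all arrays. These 3 were miR-335-5p, miR-98 and miR-193.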

How the data were processed

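Left ventricular RNA in 14 samples was labelled at its 3′ end by the authors' service provider and hybridized to single-channel arrays of miRBase 16.0 probes. The deposited spot intensities are background-subtracted by the authors, 3 spots per probe. The deposited log2 values were scaled by the authors, according to the notes of the table, with a factor from the 20% trimmed mean of each array. They equal the mean of the log2 of the 3 spots plus 1 constant per array (largest departure 8.6e-14), whereas log2 of the averaged spots, used here for values without scaling, departs by over 0.5 for 2 miRs. The authors kept 524 mouse probes above thresholds set from negative controls, and 520 were used here. The series value table holds the same log2 values for all 2576 probes. The authors' p-value, false discovery rate and fold columns were not used. Groups were taken from the sample labels.

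HF+E2 and HF were compared with limma 3.58.1 in R 4.3.3 (lmFit, eBayes) over all 14 arrays and 520 miRs, with p-values adjusted by Benjamini-Hochberg. Calls needed an adjusted p below 0.05 and more than 0.5 log2 units of difference. The calls use the fold and false discovery thresholds of the study's sham comparison, for which no test is named. The fit was tested on simulated data. Single miRs were also compared by exact permutation. The number of arrays limits the precision. The sources do not say whether each HF+E2 sample was a single heart, and p-values measure the spread between these arrays. Alternatives were other scalings, background subtraction, blocks, array weights, the methods' 2-group test, other filters and leaving out each array. Same-numbered HF and HF+E2 arrays had deviations correlated between -0.26 and 0.10, and the main fit did not pair them. With same-numbered sham arrays the correlations were between -0.12 and 0.55.

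MiRs were placed by sequence on RefSeq entries of GRCm38.p6, with 403 of 520 identical, 4 contained and 113 not placed. The members and the lists of miRs were chosen with earlier results of these data known. Named were, among the 255 miRs, the called ones (up to 10 in each direction), the 3 next by p, up to 15 called with and without scaling, up to 4 of each list, the miR-129, miR-335, miR-208, miR-499 and miR-21 miRs always, and 5 arm pairs by p.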

Additional observations from a re-analysis of the deposited data

Results flagged for a closer look

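For 6 of the 90 groups of 5 arrays examined (HF and HF+E2 for 45 named miRs), 1 array stood apart from the other 4 by more than Dixon's test allows at 95%, and chance gives about 1 in 20. MiR-3068* was 8.06 on HF 5 and 7.07 to 7.24 on the other HF arrays, all on the scaled log2 scale. MiR-208a-3p was 14.17 on HF 2 against 14.98 to 15.26, and miR-335-3p was 5.78 on HF 2 against 5.13 to 5.25. MiR-100 was 12.85 on HF+E2 3 against 13.37 to 13.48. MiR-378* was 11.61 on HF 3 against 11.83 to 11.90, and miR-214* was 8.83 on HF 4 against 9.20 to 9.28.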

How the results depend on the processing

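Of the 255 miRs, 5 were called. Their calls were counted over 29 fits of the whole table, with the main fit included and the unscaled fit left out. MiR-335-5p was called in 27 of these fits, miR-98 in 23, miR-106a in 20, miR-193 in 10 and miR-322 in 9. Without scaling, miR-193 was not called, whereas the other 4 were. Of these 255, 0 were called with the header code as a block and 0 after quantile normalization of unscaled values, 1 with the methods' 2-group test, 1 with negative controls subtracted and 1 after quantile normalization of scaled values. There were 3 with the HF and HF+E2 arrays alone, 3 with only miRs above the near-threshold range tested, 8 with all mouse probes tested, 19 with array weights, 16 without the arrays marked 650, 12 with the near-threshold limit at 1 log2 unit, and 117 without scaling. Of all 520 miRs 12.1% were called, but 0% with the code block and 0% with unscaled quantiles, 0.962% with the 2-group test, 3.08% with scaling to the 75th percentile, 21% with array weights, 0.192% with negative controls subtracted, 32.7% without scaling, 3.85% with the HF and HF+E2 arrays alone, 1.01% of those tested with only miRs above the near-threshold range, 0.769% with scaled quantiles and 22.9% without the 650 arrays. The counts of 0 among the 255 stood beside 20 miRs with an unadjusted p under 0.05 with the code block and 27 with unscaled quantiles. Leaving out 1 array gave 1 to 14 calls among the 255, 51 to 206 without scaling, 0.962% to 16.7% among the 520, and 0 to 1 for the arm differences. The unscaled count of 117 was 195 without the 650 arrays. With the replicate number as a block, 10 of the 255 and 13.8% of the 520 miRs were called. Deviations of same-numbered HF and HF+E2 arrays were correlated by at most 0.10, and those with same-numbered sham arrays by up to 0.55. The sources do not say whether the numbers pair arrays.

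Differences that changed sign without scaling were -0.20 for miR-3474, -0.083 for miR-345-5p, -0.28 for miR-335-3p, -0.25 for miR-208a-3p, -0.45 for miR-208a-5p, -0.36 for miR-378*, -0.30 for miR-34a, -0.12 for miR-34b-5p, -0.13 for miR-34c, -0.39 for miR-17*, -0.34 for miR-133a*, -0.42 for miR-29c*, -0.41 for miR-30c-1*, -0.44 for miR-221 and -0.50 for miR-193b, as the shift of all miRs by the constants implies. With the code block they were -0.033 for miR-193, -0.28 for miR-3068*, 0.20 for miR-1247*, -0.15 for miR-17*, -0.27 for miR-133a* and -0.13 for miR-193b. MiR-129-1-3p was 0.12 with array weights, 0.051 with scaling to the median of the 255 miRs, 0.12 without the 650 arrays and -0.14 to 0.080 when 1 array was left out, positive without HF 2, HF 3, HF+E2 1 or HF+E2 3. MiR-335-3p was -0.071 with negative controls subtracted, -0.065 with scaled and -0.075 with unscaled quantiles. The cause of the changes other than those without scaling was not tested. Of the comparisons of single miRs and arms under other settings, 1223 kept direction and side of the threshold, 89 lost a call, 52 gained one and 31 changed sign. Signal over background limits the 223 miRs near the threshold, and spot saturation the 42 saturated ones.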
